A study of Mus musculus with 5 samples.

Results

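The 9 genes described here, Ppp1r1b, Arpp21, Rasd2, Adora2a, Gpr6, Tac1, Syndig1l, Rxrg and Foxp1, are genes that projection neurons of the striatum use. They were taken by symbol from a table of 47729 Ensembl genes, and all 9 had a mean of at least 10 counts per library. RNA sequencing was carried out on brain RNA of 5 male mice of the inbred strain C57BL/6 at an age of 30 months. The labels name no treatment and no engineered allele. The libraries formed 1 group and are called mice 7, 8, 9, 10 and 11 after their label numbers; they held between 15392006 and 18723390 counts, the most in mouse 11. There was no younger, female or treated group to compare, so the values address how strongly these genes were represented in the aged brain and how far the mice differed. The labels number the samples without tying each to an animal, so the errors and tests describe variation between these 5 samples, part of which may be technical (n = 5 throughout, unless given).

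The striatum is the input station of the basal ganglia, and most of its neurons are inhibitory projection neurons that receive cortical, thalamic and dopaminergic input. They fall into a direct pathway, whose neurons carry the dopamine receptor Drd1 and the peptide substance P, and an indirect pathway, whose neurons carry the dopamine receptor Drd2, the adenosine receptor Adora2a and enkephalin. Dopamine and adenosine act in both through cyclic AMP and protein kinase A, whose targets include the protein DARPP-32, the product of Ppp1r1b. In RNA of mixed brain tissue, fewer cells of a type and less RNA per cell cannot be told apart. Several of these genes, among them Foxp1, Arpp21 and Tac1, are also known from neurons outside the striatum.

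All 9 are protein-coding genes, placed here on GRCm38 with GENCODE M21. Ppp1r1b (ENSMUSG00000061718) lies at chr11:98348404-98357796 on the plus strand, Arpp21 (ENSMUSG00000032503) at chr9:112065091-112235938 on the minus strand and Rasd2 (ENSMUSG00000034472) at chr8:75213944-75224113 on the plus strand. Adora2a (ENSMUSG00000020178) lies at chr10:75316877-75334784 on the plus strand, Gpr6 (ENSMUSG00000046922) at chr10:41069977-41072285 on the minus strand and Tac1 (ENSMUSG00000061762) at chr6:7554879-7565834 on the plus strand. Syndig1l (ENSMUSG00000071234) lies at chr12:84677277-84698831 on the minus strand, Rxrg (ENSMUSG00000015843) at chr1:167598384-167639623 on the plus strand and Foxp1 (ENSMUSG00000030067) at chr6:98925338-99522721 on the minus strand. The strand setting of the counting is not stated, so reads of antisense partners cannot be told apart from those of the genes. In Ppp1r1b, 460 exon bases (15.7%) overlap the antisense transcript 1700003D09Rik, which had at most 12 counts in a library. In Syndig1l, 177 bases (5.75%) overlap the antisense transcript Gm48573, and in Arpp21, 580 bases (3.33%) overlap 2900079G21Rik, which had at most 39 counts.

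Because cyclic AMP signalling is central to these neurons, the promoter windows were read for the cyclic AMP response element (CRE, TGACGTCA) and its half-site TGACG, on both strands. RefSeq windows on GRCm38.p6, from 250 bases before to 50 bases after an annotated start, covered 6 of the 9 genes with 17 windows, some of them overlapping; Ppp1r1b, Adora2a and Syndig1l are named only. A whole CRE was found in 1 of the 17 windows, that of Gpr6, and in 1.79% of 32851 windows of all genes. The half-site was found in 6 of the 17 windows, of the 4 genes Gpr6, Tac1, Arpp21 and Foxp1, and in 20.8% of all windows. The GC box GGGCGG was in 3 of the 17 windows and 35.7% of all, TATAAA in 0 and 13.6%, and AGGTCA, the half-site that retinoid X receptors can bind, in 2 (of Rxrg and Arpp21) and 16.3%. The windows of Gpr6 and Tac1 are shown because they hold more than 1 half-site and because mouse 11 was the highest of the 5 for Gpr6 and the lowest for Tac1. Both are written along the gene, and capitals mark matches to the half-site on either strand, which form the whole CRE in Gpr6.
Gpr6 promoter, chr10:41072241-41072540, minus strand: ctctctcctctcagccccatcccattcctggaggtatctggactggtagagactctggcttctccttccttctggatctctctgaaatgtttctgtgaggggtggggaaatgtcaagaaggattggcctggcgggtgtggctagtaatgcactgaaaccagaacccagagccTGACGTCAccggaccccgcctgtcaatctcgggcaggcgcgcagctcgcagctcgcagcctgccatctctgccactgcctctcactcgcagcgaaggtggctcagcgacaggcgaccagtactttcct
Tac1 promoter, chr6:7554811-7555110, plus strand: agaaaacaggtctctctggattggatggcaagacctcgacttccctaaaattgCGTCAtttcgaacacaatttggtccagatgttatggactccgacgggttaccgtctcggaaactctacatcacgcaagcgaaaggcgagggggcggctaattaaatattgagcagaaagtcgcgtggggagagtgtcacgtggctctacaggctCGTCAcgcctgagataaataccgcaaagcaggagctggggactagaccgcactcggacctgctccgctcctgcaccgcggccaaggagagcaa
The CRE of Gpr6 begins 78 bases before the RefSeq start of its window, and the half-sites of Tac1 begin 197 and 43 bases before theirs. The GENCODE M21 start of Tac1, chr6:7554879, lies upstream of its RefSeq start. The nearer half-site of Tac1 therefore falls inside the gene as placed above. These matches are descriptions of the letters, and binding was not measured. Arpp21 also carries a microRNA in an intron, Mir128-2, whose mature 3′ arm miR-128-3p is shown with its seed (bases 2 to 8) in capitals; it is known as a brain-enriched microRNA, and its hairpin had at most 1 count in these libraries.
miR-128-3p, chr9:112118644-112118664, minus strand: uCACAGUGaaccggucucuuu

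Levels are given in RPKM, reads per kilobase of gene length scaled to the library total, recomputed with each library's own total. Rasd2 and Ppp1r1b were highest, at 62.4 ± 9.83 and 59.0 ± 16.9 RPKM (SD, n = 5), above 96.3% and 95.9% of the 16318 genes tested for variation (mean count of 10 or more). Arpp21 followed at 23.2 ± 1.55 RPKM, then Adora2a at 14.8 ± 3.27, Syndig1l at 14.6 ± 3.16 and Tac1 at 12.2 ± 1.21 RPKM. The lengths used are those implied by the deposited RPKM, 2534 bases for Adora2a and 2499 for Syndig1l. GENCODE M21 gives 3062 and 3080 for these, and 3399 by either source for Tac1. The order of Adora2a, Syndig1l and Tac1 therefore depends on the lengths used. Foxp1 had 9.52 ± 0.653, Rxrg 8.0 ± 0.886 and Gpr6, the lowest, 5.32 ± 1.16 RPKM, still above 53.4% of genes. By counts not scaled to length the order differs: Arpp21, whose exons sum to 17428 bases, took the most counts of the 9, a mean of 6568 per library, and Gpr6 the fewest, 156.

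**Figure D1:**
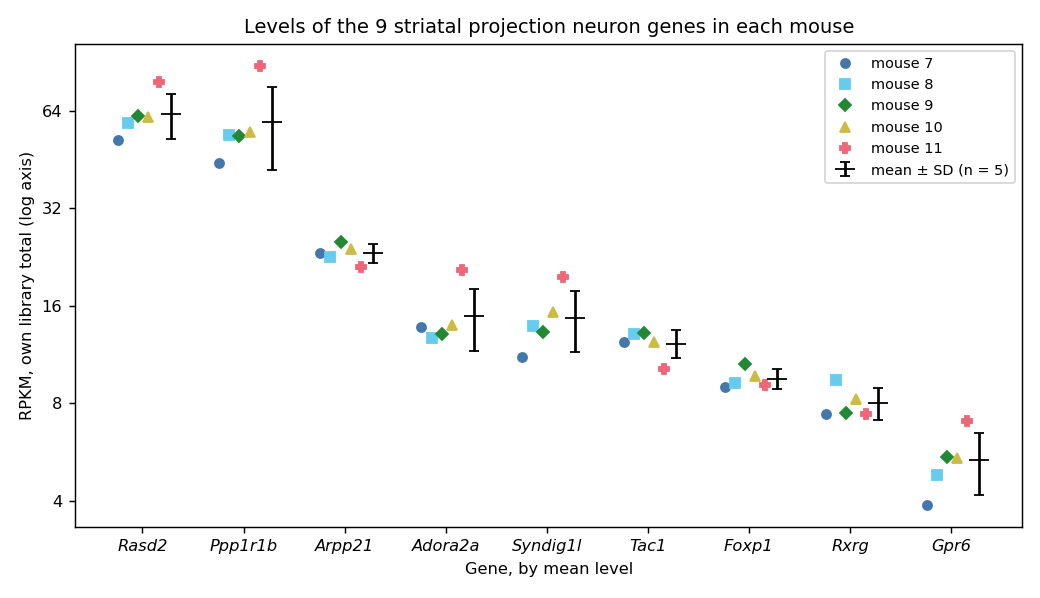
Level of each gene in each mouse, as RPKM recomputed with the library's own total, on a log axis; symbols are mice and the black marks are the mean and SD of the 5. Mouse 11 is highest for Rasd2, Ppp1r1b, Adora2a, Syndig1l and Gpr6 and lowest for Arpp21, Tac1 and, by less than 0.01 RPKM, Rxrg.

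Neighbours in this order were compared within each mouse by the log2 ratio of their RPKM (pseudocount 0.1), in an exact permutation test that flips signs (two-sided), adjusted by Benjamini-Hochberg over the 8 pairs. With 5 mice this test cannot give a p below 0.0625. The order was itself taken from the mean RPKM of these same mice, which favours the first gene of each pair. The p-values and counts of mice are therefore a description of the order and no independent support for it. In 4 pairs the first gene was higher in 5 of 5 mice, with an exact permutation p of 0.0625 (adjusted 0.125). These were Ppp1r1b over Arpp21 (1.30 ± 0.44, log2, SD over mice), Arpp21 over Adora2a (0.67 ± 0.36), Tac1 over Foxp1 (0.35 ± 0.13) and Rxrg over Gpr6 (0.60 ± 0.37). The other 4 pairs did not keep their order in every mouse. Rasd2 was above Ppp1r1b in 4 of 5 mice (0.11 ± 0.16, exact permutation p = 0.25), all but mouse 11, and Foxp1 above Rxrg in 4 of 5 (0.25 ± 0.19, p = 0.125), all but mouse 8. Syndig1l was above Tac1 in 4 of 5 mice (0.24 ± 0.43, exact permutation p = 0.312), all but mouse 7. Adora2a and Syndig1l lay closest together, with Adora2a higher in 2 of 5 mice (0.02 ± 0.18, exact permutation p = 0.875), and without mouse 7 the mean ratio changed sign to −0.05.

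Among the signalling genes, Ppp1r1b encodes DARPP-32, which inhibits protein phosphatase 1 once protein kinase A has phosphorylated it. It had 44.1, 54.1, 53.5, 54.98 and 88.2 RPKM in mice 7, 8, 9, 10 and 11. Mouse 11 stood well above the others, at 1.71 times the mean of the other 4 (51.7 ± 5.08 RPKM, SD, n = 4), and mouse 7 was lowest. The spread over the 5 mice, a coefficient of variation of 28.7%, was the widest of the 9 genes, where counting error alone at 2863 counts would give 1.87%. Arpp21 encodes another phosphoprotein regulated by cyclic AMP, ARPP-21, whose phosphorylated form binds calmodulin. It had 23.2, 22.6, 25.2, 24.0 and 21.1 RPKM in mice 7 to 11, with a coefficient of variation of 6.67%, the narrowest of the 9. Here mouse 11 was lowest and mouse 9 highest, within a range of 1.195-fold. Rasd2 encodes Rhes, a small GTPase enriched in the striatum. Its levels were 51.9, 58.6, 61.6, 61.4 and 78.5 RPKM in mice 7 to 11, so mouse 11 was highest, at 1.35 times the mean of the other 4, and mouse 7 lowest.

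Of the receptors, Adora2a encodes an adenosine receptor of indirect-pathway neurons that raises cyclic AMP. It had 13.8, 12.7, 13.1, 14.0 and 20.6 RPKM in mice 7 to 11. The other 4 mice lay close together, at 13.4 ± 0.599 RPKM (SD, n = 4), and mouse 11 was 1.54 times their mean. Gpr6 encodes a receptor that activates adenylyl cyclase without a bound hormone and is also enriched in indirect-pathway neurons. Its levels were 3.88, 4.80, 5.47, 5.41 and 7.05 RPKM, from 107, 131, 152, 154 and 234 counts in mice 7 to 11. Mouse 11 was again highest and mouse 7 lowest, a range of 1.82-fold. With the fewest counts of the 9, Gpr6 had the largest counting error, 8.02% at its mean count against a coefficient of variation of 21.8%. These errors cover counting only, since the counts carry no molecular identifiers.

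Tac1 encodes the precursor of substance P, the peptide ligand released by direct-pathway neurons. It had 12.4, 13.1, 13.2, 12.4 and 10.2 RPKM in mice 7 to 11. Mouse 11, highest for both receptors, was lowest for this peptide gene, at 0.798 times the mean of the other 4 (12.7 ± 0.436 RPKM, SD, n = 4). Syndig1l encodes a membrane protein related to the synapse protein SynDIG1. Its levels were 11.1, 13.9, 13.3, 15.3 and 19.6 RPKM in mice 7 to 11. Mouse 11 was highest, at 1.46 times the mean of the other 4, and mouse 7 lowest.

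The remaining genes encode transcription factors. Rxrg encodes a retinoid X receptor, the partner of other nuclear receptors on DNA. It had 7.42, 9.45, 7.45, 8.25 and 7.42 RPKM in mice 7 to 11, and only mouse 8 stood above the rest, at 1.24 times the mean of the other 4. Foxp1 encodes a forkhead protein of striatal development that is also expressed in cortex. It had 8.97, 9.24, 10.6, 9.69 and 9.11 RPKM in mice 7 to 11, the narrowest range of the 9, 1.18-fold, with mouse 9 highest and mouse 7 lowest.

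No gene was called more variable between mice than others of its level. With edgeR's quasi-likelihood fit and Benjamini-Hochberg adjustment at 0.05, 0 of the 9 genes and 0 of 16318 genes (0%) were called; the lowest adjusted p of any gene was 0.585. At an unadjusted p under 0.05, edgeR picked 0 of the 9 and 4.82% of all genes, and DESeq2 marked 0 of the 9 and 0.300% of all genes as dispersion outliers. The lowest p of the 9 was that of Ppp1r1b, 0.0713 (edgeR, adjusted 0.981), and the other 8 lay between 0.235 and 0.954. The SD of log2 CPM over the mice had a median of 0.25 for the 9 genes, 0.30 for all genes tested and 0.24 for the 9700 genes whose mean count lay within the range of the 9. With the trend of each library on GC content and length removed, these medians were 0.15, 0.23 and 0.17, so the 9 genes lay above the genes of like count before that step and below them after it. Without mouse 11, the median of the 9 genes was 0.12. The 9 SDs fell into a wide group, Ppp1r1b (0.40), Gpr6 (0.34), Syndig1l (0.33), Adora2a (0.32) and Rasd2 (0.25), and a narrow one, Rxrg (0.14), Tac1 (0.12), Foxp1 (0.10) and Arpp21 (0.08).

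The wide group comprised the 5 genes that were highest in mouse 11. On TMM-scaled log2 CPM, mouse 11 lay above the mean of the 5 mice by 0.68 for Ppp1r1b, 0.56 for Adora2a, 0.51 for Syndig1l, 0.49 for Gpr6 and 0.41 for Rasd2. It lay at 0.00 for Foxp1, −0.04 for Rxrg, −0.08 for Arpp21 and −0.20 for Tac1. Mouse 11 was therefore the highest of the 5 for 5 of the 9 genes, as it was for 37.6% of all genes tested. Mouse 7 was the lowest for 6 of the 9, namely Gpr6 (−0.45), Ppp1r1b (−0.40), Syndig1l (−0.39), Rasd2 (−0.28), Rxrg (−0.13) and Foxp1 (−0.11), as it was for 25.4% of all genes. The mean deviation of the 9 genes was 0.26 in mouse 11, −0.21 in mouse 7 and between −0.06 and 0.01 in mice 8, 9 and 10. One mouse stood apart from the other 4, with a gap to its neighbour of over 0.71 of the whole range (Dixon's criterion), for 3 of the 9 genes and for 12% of all genes. These were Ppp1r1b and Adora2a, with mouse 11 high, and Tac1, with mouse 11 low.

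The deviations in mouse 11 moved with the GC content of the transcripts. GC content of the longest transcript was 61.0% for Ppp1r1b, 59.5% for Syndig1l, 59.2% for Adora2a, 55.9% for Gpr6 and 55.6% for Rasd2, the 5 genes highest in mouse 11. It was 54.6% for Rxrg, 48.8% for Arpp21, 44.9% for Foxp1 and 42.8% for Tac1, the 4 that were not. Over the 9 genes, GC content and the deviation in mouse 11 had a Pearson r of 0.892 and a Spearman rho of 0.933, given as a description since the 9 values share 1 library. In the other mice the relation ran the other way, with an r (rho) of −0.862 (−0.817) in mouse 9, −0.721 (−0.717) in mouse 7, −0.409 (−0.700) in mouse 8 and −0.309 (−0.183) in mouse 10; deviations of a gene sum to 0 over the mice, so these values are tied to that of mouse 11. All genes tested showed a slope of the same sign: the median deviation in mouse 11 was −0.39 for 4443 genes under 45% GC and −0.13 from 45 to 50%. It was 0.19 from 50 to 55%, 0.44 from 55 to 60% and 0.72 for 685 genes at 60% and over. The slope ran the other way and was shallower in mouse 7, from a median of 0.28 under 45% GC to −0.16 at 60% and over, in mouse 9, from 0.05 to −0.28, and in mouse 8, from 0.08 to −0.20.

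**Figure D2:**
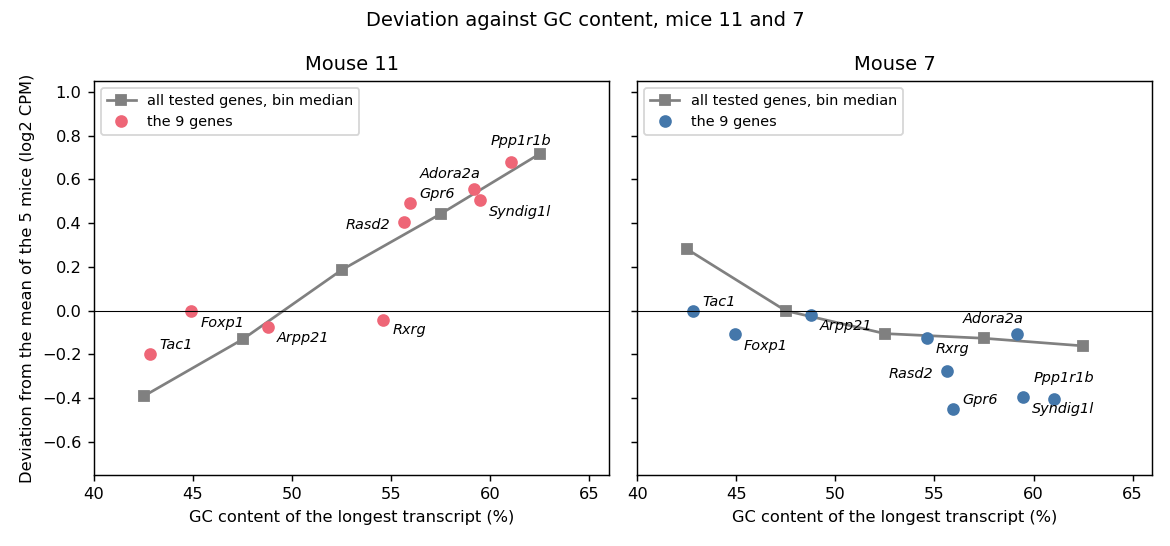
Deviation of each gene from its mean over the 5 mice (TMM-scaled log2 CPM) against the GC content of its longest transcript, in mouse 11 (left) and mouse 7 (right); coloured points are the 9 genes and grey squares the median of all tested genes per GC bin, the open outer bins drawn at the ends. In mouse 11 most genes lie near the grey line, with Rxrg below and Foxp1 above it, while in mouse 7 Gpr6, Ppp1r1b, Syndig1l, Rasd2, Foxp1 and Tac1 lie below it.

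When the trend of each library on GC content and length was removed by loess over all genes, most of the excess in mouse 11 was gone and the deficit in mouse 7 was not. In mouse 11 the deviations became 0.03 for Ppp1r1b, 0.01 for Adora2a, −0.06 for Syndig1l, 0.11 for Gpr6 and 0.05 for Rasd2. The 3 genes of lowest GC content became the ones highest in mouse 11, Foxp1 (0.39), Arpp21 (0.17) and Tac1 (0.17), against 30.0% of all genes, and Rxrg became lowest there (−0.34). Mouse 7 was lowest for 7 of the 9 genes after this step, against 30.6% of all genes; these were Foxp1 (−0.39), Gpr6 (−0.35), Syndig1l (−0.25), Ppp1r1b (−0.24), Tac1 (−0.22), Arpp21 (−0.20) and Rasd2 (−0.16). The mean deviation of the 9 genes became 0.06 in mouse 11 and stayed at −0.20 in mouse 7. The SD over mice shrank to 0.15 for Ppp1r1b and 0.07 for Adora2a but grew for Foxp1 (0.29), Rxrg (0.22), Arpp21 (0.15) and Tac1 (0.15). Whether the GC slope of mouse 11 arose in the tissue or in the library was not tested.

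**Figure D3:**
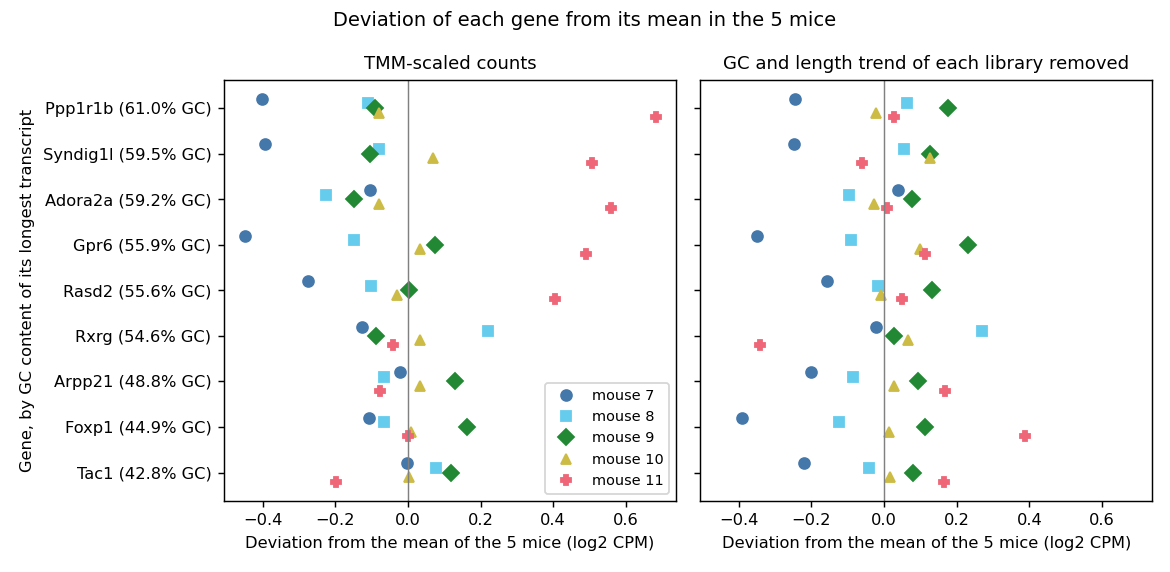
Deviation of each of the 9 genes from its mean over the 5 mice in TMM-scaled log2 CPM (left) and after removal of each library's trend on GC content and length (right); rows run from high to low GC content and symbols are mice. The points of mouse 11 spread from −0.20 to 0.68 on the left, and mouse 7 is leftmost for 7 genes on the right.

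Ratios between genes of the same mouse do not depend on library size. The ratio of Adora2a, of the indirect pathway, to Tac1, of the direct pathway, was 2.03 in mouse 11, against 1.12, 0.971, 0.994 and 1.13 in mice 7, 8, 9 and 10. With the gene lengths used here, the receptor RNA was well above the peptide RNA in mouse 11. In the other mice both stood at about the same level. The log2 ratio averaged 0.26 ± 0.43, and after trend removal its SD was 0.16, and mouse 11, at 0.10, was the lowest, against 0.21 to 0.52 in mice 7 to 10. Gpr6 to Tac1 was −0.52 in mouse 11, against −1.65 to −1.18 in the others (−1.21 ± 0.42), with an SD of 0.11 after trend removal. Between the 2 indirect-pathway receptors, Gpr6 to Adora2a held −1.46 ± 0.22, and its SD stayed at 0.22; mouse 7 had the lowest ratio, −1.80, against −1.53 to −1.24 in the others.

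Ppp1r1b was also set against the genes with wider expression. Its log2 ratio to Arpp21 was 2.06 in mouse 11, against 0.92 to 1.26 in the others (1.30 ± 0.44 over all 5), and to Foxp1 3.26 in mouse 11, against 2.29 to 2.54 (2.58 ± 0.39). After trend removal these SDs were 0.12 and 0.22, and mouse 11 had the lowest of both ratios. Tac1 to Ppp1r1b was −3.10 in mouse 11, against −2.14 to −1.83 in the others (−2.23 ± 0.50), and its SD after trend removal was 0.10. Adora2a to Ppp1r1b (−1.97 ± 0.17) and Rasd2 to Ppp1r1b (0.11 ± 0.16) varied least of the 8 ratios with the trend kept, and their genes lie between 55.6% and 61.0% GC; after trend removal their SDs were 0.17 and 0.06, and Adora2a to Ppp1r1b was no longer among the least variable.

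**Figure D4:**
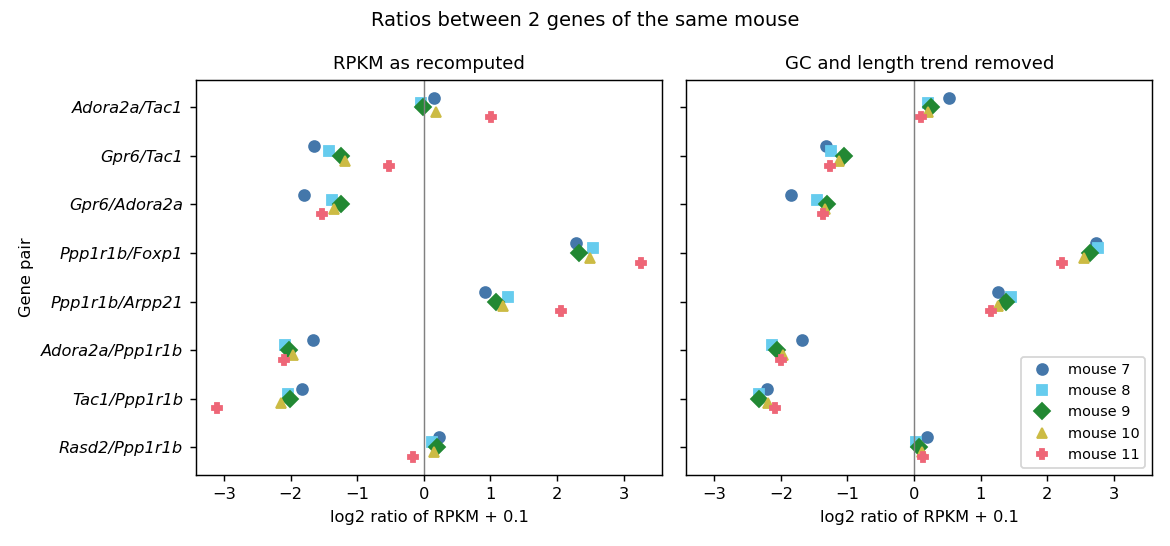
Log2 ratio of RPKM (pseudocount 0.1) between 2 genes of the same mouse, before (left) and after (right) removal of each library's trend on GC content and length; symbols are mice. Mouse 11 lies apart for Adora2a to Tac1, Ppp1r1b to Foxp1 and Tac1 to Ppp1r1b on the left and on the right has the lowest value of Adora2a to Tac1 (0.10) and of Ppp1r1b to Foxp1 (2.22).

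Other genes of striatal projection neurons were measured too. Of 27 such genes, 26 were matched and tested; edgeR called 0 of the 26 (0 also at an unadjusted p under 0.05, and 0 by DESeq2), and their median SD of log2 CPM was 0.22. Among those of both pathways, Pde1b, a phosphodiesterase, had 121 ± 13.8 RPKM and Scn4b, a sodium channel subunit, 53.3 ± 5.75, while Rasgrp2 and Foxp2 were lowest at 1.42 ± 0.108 and 1.80 ± 0.511 RPKM. In the direct-pathway list, Sfxn1, a mitochondrial carrier, had 20.0 ± 0.994 RPKM and Pdyn, the precursor of dynorphin, 16.5 ± 2.41, with the transcription factors Isl1 (0.893 ± 0.310) and Ebf1 (1.67 ± 0.307) lowest. In the indirect-pathway list, Penk, the precursor of enkephalin, had 114 ± 19.6 RPKM and Drd2 20.8 ± 3.24, while the phosphatase Ptprm had 14.1 ± 1.04 and the transcription factor Sp9 0.977 ± 0.377. Mouse 11 was highest for 14 of the 26 genes and mouse 7 lowest for 14; the shares over all genes were 37.6% and 25.4%. After trend removal these counts were 7 and 15 of 26, against 30.0% and 30.6% of all genes. The median deviation of the 26 was 0.20 in mouse 11 and −0.17 in mouse 7, and 0.07 and −0.16 after trend removal.

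Partners of the encoded proteins gave 0 calls in edgeR as well. Of 11 kinase and phosphatase genes that act on or through DARPP-32, Ppp3r1, a calcineurin subunit, was highest at 278 ± 33.8 RPKM, and 0 had an unadjusted p under 0.05; their median deviation was 0.03 in mouse 11 and −0.20 in mouse 7. Of the 5 genes of the other tachykinins and of their receptors, 3 had enough counts to be tested, and Tac2 was highest at 7.25 ± 1.06 RPKM, below Tac1 at 12.2. Among the 5 other retinoid receptor genes, Rxrb was highest at 11.4 ± 2.78 RPKM, and their median deviation in mouse 11 was 0.43, or −0.07 after trend removal, against −0.04 and −0.34 for Rxrg.

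Markers of other brain cells and regions moved between the mice beside these genes, and their part in the values above was not tested. Of the matched genes of the 18 lists used, 0 were at 0 in every library. Cortical excitatory neuron markers, led by the glutamate transporter Slc17a7 at 348 ± 100.7 RPKM, had a median deviation of 0.43 in mouse 11 and −0.23 in mouse 7. After trend removal these were 0.26 and −0.13. The summed level of the 8 markers, with the trend kept, was 2044 CPM in mouse 11 and 1203 to 1437 CPM in the others. Slc17a7, of 56.6% GC, had the most counts in this sum, with 520 RPKM in mouse 11 against 271 to 339.5 in the others. Mouse 11 was highest for 6 of the 8 markers. Rorb and Neurod6 were highest in mouse 7, and Rorb deviated by −0.48 in mouse 11. Immediate early genes, which neurons switch on with activity (Egr1 highest at 58.3 ± 15.6 RPKM), were lowest in mouse 7 for 10 of 12, with a median deviation of −0.70 there, or −0.58 after trend removal, beside −0.21 and −0.20 for the mean of the 9 striatal genes; their summed level was 346 CPM in mouse 7 and 513 to 755 CPM in the others. Thalamic markers, led by Prkcd at 20.0 ± 3.13 RPKM, had a median of 0.33 in mouse 11 and −0.33 in mouse 7, and 0.17 and −0.24 after trend removal. Hippocampal markers, led by Wfs1 at 47.0 ± 7.88 RPKM, had 0.14 and −0.10, and after trend removal −0.09 and −0.11, a change of sign in mouse 11. Cholinergic markers, which mark striatal interneurons among other cells, were low (Slc5a7 highest at 2.02 ± 0.448 RPKM) and had −0.11 and −0.20, and after trend removal −0.06 and −0.12.

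Glial markers were set beside them too. The median deviation was −0.21 in mouse 11 and 0.00 in mouse 7 for oligodendrocytes (Mbp highest at 346 ± 73.2 RPKM), and −0.09 and 0.09 after trend removal. Its members differed, and Mbp itself deviated by 0.50 in mouse 11. Astrocyte markers (Slc1a2 highest at 305 ± 55.7 RPKM) had −0.04 in mouse 11 and −0.13 in mouse 7. After trend removal they had −0.01 and −0.31, beside medians of 0.05 and −0.22 for the 9 striatal genes. The astrocyte markers split with the trend kept. In mouse 11 Aqp4 deviated by −0.79 and Slc1a2 by −0.44, but Sox9 by 0.71 and Aldh1l1 by 0.27. In mouse 7 Aqp4 deviated by 0.76 and Sox9 by −0.53 (trend kept). The microglial markers (4 genes, Csf1r highest at 25.4 ± 3.71 RPKM) had 0.27 in mouse 11 and −0.21 in mouse 7, and after trend removal 0.11 and −0.12. Mouse 7 was lowest for 3 of these 4 genes, and for 2 after trend removal. P2ry12 went the other way, by −0.80 in mouse 11 and 0.57 in mouse 7, or −0.36 and 0.24 after trend removal. Of the lists measured, those of cerebellum, hypothalamus and olfactory bulb differed most between mice. In these, 5 of 8, 2 of 6 and 1 of 4 genes tested had an unadjusted edgeR p under 0.05, against 4.82% of all genes. The counts were 4 of 12 for immediate early genes, 1 of 8 for oligodendrocytes and 1 of 5 for astrocytes. They were 0 for cortical, thalamic, hippocampal and cholinergic markers. The cerebellar genes Fat2 and Cbln3 had the lowest adjusted p of any gene (edgeR, 0.585). Cerebellar markers (Zic1 highest at 11.8 ± 2.43 RPKM) had a median deviation of 2.16 in mouse 10, where the 9 genes had a mean of −0.00, and summed to 242 CPM there and 88.2 to 124 CPM in the others. Their median was −0.63 in mouse 11 and 0.66 in mouse 7 (−0.50 and 0.55 after trend removal). With the trend kept, these signs were opposite to those of the mean of the 9 genes, but the members of the list split. Zic1, Zic2 and Slc1a6 deviated by 0.24, 0.82 and 0.21 in mouse 11 and by −0.18, −0.39 and −0.21 in mouse 7. The rest of the list went the other way in both mice, and among them Gabra6 had 0 RPKM in mice 9 and 11. Gabra6, Cbln3 and Fat2 had 3.18, 5.16 and 2.74 RPKM in mouse 10. In mice 8, 9 and 11 each had at most 0.249 RPKM. How much cerebellum each sample held was not tested. Hypothalamic peptides (Avp highest at 12.2 ± 10.5 RPKM) had 1.07 in mouse 11, 0.12 in mouse 7 and −0.91 in mouse 9, and after trend removal 0.57, 0.15 and −0.67. Olfactory bulb markers (Th highest at 5.52 ± 2.31 RPKM) had −0.21 in mouse 11, 0.17 in mouse 7 and −0.67 in mouse 9. After trend removal they had −0.37, 0.26 and −0.56. With the trend kept, Th itself deviated by 0.72 in mouse 11, a sign opposite to that of the median of its list.

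**Figure D5:**
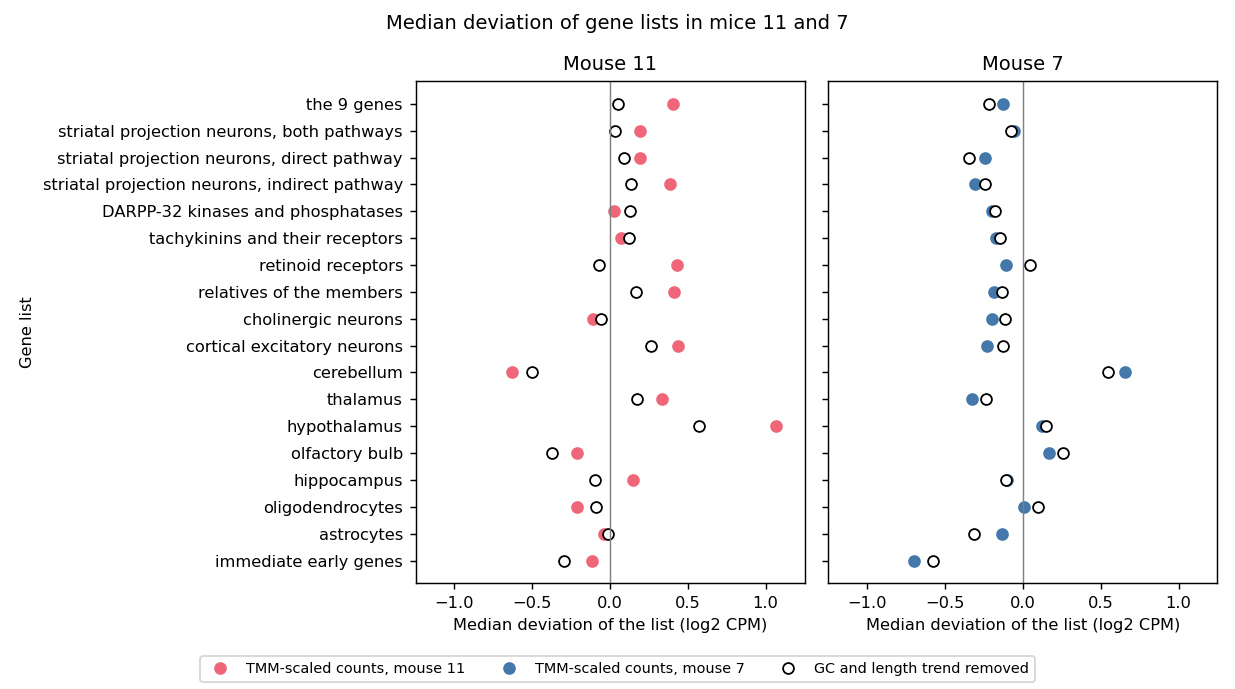
Median deviation from the mean of the 5 mice (log2 CPM) of the gene lists in mouse 11 (left) and mouse 7 (right); filled points are TMM-scaled counts and open points values after removal of each library's trend on GC content and length. The 9 genes move from 0.41 to 0.05 in mouse 11 with that removal and from −0.13 to −0.22 in mouse 7.

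The genes whose profile over the 5 mice was most like the mean profile of the 9 were looked for among the 11185 genes that averaged 100 or more counts. Likeness was the root-mean-square difference of centred log2 CPM, and the closest 6 were Blcap, Cldnd1, Ganab, Prpf19, Ehd3 and Casc3, with differences from 0.018 to 0.022. Blcap, for example, deviated by 0.29 in mouse 11 and by −0.20 in mouse 7, beside 0.26 and −0.21 for the mean of the 9. In mouse 11 that mean falls between the wide group (0.41 to 0.68) and the narrow group (−0.20 to 0.00). None of the 9 genes lay there, so likeness to the mean is not likeness to any single gene of the 9. After trend removal the closest 6 were Timp2, Mras, Nav1, Gnai1, Zfp609 and Ccny, with differences from 0.011 to 0.015. Of the 24 other striatal genes with enough counts, 4 (16.7%) were among the closest 5% of genes, with the trend kept and with it removed.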

How the data were processed

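Brain RNA of 5 mice in 1 group was sequenced from Illumina mRNA libraries, per the labels. Per the labels and the values, the authors deposited gene counts (whole numbers) and RPKM. The submitters' processing notes name GRCm38, featureCounts 1.4.6-p4, STAR 2.4.1d and CASAVA 1.7; their roles, the annotation release and the strand setting are not given in the sources used here. Only 20% of the RPKM that the authors deposited had been divided by their own library's total: the totals were recycled from gene to gene, so RPKM were recomputed with the implied gene lengths. Members and gene lists (18 lists, 129 genes) were chosen with earlier results of these data known.

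Counts were fitted in edgeR 4.0.16 (TMM, intercept, mean count of at least 10), and each gene's dispersion was compared with a robust F distribution along expression (limma 3.58.1); the test was run on simulated counts first. DESeq2 1.42.0 was an alternative, as were other scalings, filters, prior counts, pseudocounts, trend removal (loess, span 0.3, on GC content and log length) and leaving out each mouse. Log2 CPM used a prior count of 1. Coordinates come from GENCODE M21. Named were the 9 genes, the 2 highest and 2 lowest of each striatal list, the highest of each other list and the 6 closest profiles. Genes named in the closing part, and further markers of other cells and regions, were chosen after their values were seen. The microglia list is given over 4 of its 5 markers, and 1 is not reported here.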

Additional observations from a re-analysis of the deposited data

Results flagged for a closer look

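Of 17 values examined over the 5 mice (9 levels and 8 ratios between genes), 6 had 1 mouse farther from its neighbour than 0.71 of the whole range. Chance gives this in about 5% of such groups. By level, 3 of the 9 genes met it, against 12% of all genes tested in these libraries. For the ratios no share over all genes was computed. The 6 share genes and a library, and in each the mouse apart was mouse 11. Its level of Ppp1r1b was 88.2 RPKM, that of Adora2a 20.6 RPKM and that of Tac1, the only low one, 10.2 RPKM. Its log2 ratio was 1.011 for Adora2a to Tac1, 3.26 for Ppp1r1b to Foxp1 and −3.10 for Tac1 to Ppp1r1b. After removal of the trend on GC content and length, the same ratios in mouse 11 were 0.10, 2.22 and −2.09.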

How the results depend on the processing

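Of the values recomputed for whole comparisons, 252 were counted as the same, 4 as moved and 1, Adora2a over Syndig1l, as reversed. Of those for single genes and lists, 145 were counted as the same and 17, all with the GC and length trend removed, as moved. The 8 mean log2 ratios with the trend removed could not change, since the removed part sums to 0 over the mice. The median SD of the 9 genes, 0.15 with the trend removed against 0.25, was also counted as the same. Small values that crossed 0 could be counted as the same too. For example, the mean deviation of the 9 genes in mouse 8 went from −0.06 to 0.01 without mouse 11. In mouse 9 it went from 0.01 to −0.04 without mouse 7. The count of variable genes, 0 in edgeR, was 230 with no filter on low counts and 49 as DESeq2 dispersion outliers; with each of these, 0 of the 9 genes were among them. The median SD of the 9 genes ranged from 0.12 (without mouse 11) to 0.29 as each mouse was left out, against 0.25. The mean deviation of the 9 genes in mouse 11 was 0.0574 with the GC and length trend removed, against 0.26. Adora2a over Syndig1l ranged from −0.0517 (without mouse 7) to 0.0575 on the log2 scale as each mouse was left out, against 0.02. The cause of these changes was not tested. No paired analysis was possible because the labels give a single group, so no groups share replicate numbers. With 5 mice the sign-flip test cannot pass 0.05, and at 107 to 234 counts Gpr6 has the largest counting error of the 9. Trend removal was applied to log2 values only, not to the count test.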

Other observations

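Relatives of the 9 genes were measured beside them. Of 13 genes, edgeR called 0 as variable and 2 had an unadjusted p under 0.05 (4.82% of all genes tested had), Prrt1 and Foxp4, and R3hdm2 was highest at 48.5 ± 5.81 RPKM. Foxp4, a forkhead gene of 63.4% GC, had 10.1 RPKM in mouse 11, against 3.94 to 5.25 RPKM in the others, where Foxp1, of 44.9% GC, had 9.11 in mouse 11 and 8.97 to 10.6 in the others. Prrt1, a relative of Syndig1l with 62.47% GC, had 60.7 RPKM in mouse 11, against 25.9 to 31.7 RPKM in the others. After trend removal both deviated by little in mouse 11, 0.13 for Foxp4 and 0.15 for Prrt1, on the log2 scale. Adora1, an adenosine receptor that lowers cyclic AMP, had 39.1 RPKM in mouse 11, against 25.0 to 32.2 RPKM in the others.

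Drd1, the dopamine receptor of the direct pathway, had 12.04, 16.2, 19.1, 19.8 and 13.9 RPKM in mice 7 to 11. Like Tac1, and unlike Drd2 at 25.8 RPKM, it was not highest in mouse 11. Its transcript has 46.0% GC and that of Drd2 54.97%. The pathways did not split cleanly, since mouse 11 was highest for 3 of 7 direct-pathway and 3 of 4 indirect-pathway genes. Pdyn, of the direct pathway (51.9% GC), was highest in mouse 11, at 18.5 RPKM. After trend removal Drd1 deviated by 0.09 and Drd2 by 0.06 in mouse 11, and by −0.51 and −0.21 in mouse 7.

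In the RPKM columns as the authors deposited them, Ppp1r1b had 105 RPKM in mouse 11 and Rasd2 95.5 RPKM, against 88.2 and 78.5 RPKM after recomputing. The deposited SD was 2.06 times the recomputed one for Foxp1, 1.91 times for Rasd2 and 0.884 times for Tac1.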
